A study of Mus musculus with 18 samples.

Results

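The genes described here encode the core of Wnt signalling: the secreted Wnt ligands, the enzymes that make them ready for export, their Frizzled, Lrp and Lgr receptors, secreted antagonists, and the intracellular proteins from beta-catenin to the TCF/LEF factors. They were picked out by a pattern of gene symbols that uses no measured value, and 58 of the 23228 genes in the expression table matched. The study set Ptf1a, a basic helix-loop-helix transcription factor, in the pancreas beside the same factor in the neural tube. Its 18 samples comprise 11 chromatin immunoprecipitation, 3 open-chromatin, 2 input and 2 RNA samples, and only the RNA samples are used here.

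Both RNA samples came from ICR mouse embryos labelled wild type. The neural tube sample was RNA from GFP-positive cells, sorted by flow cytometry after trypsin dissociation at E12.5. The sorted embryos carried a transgene, 2.3Ptf1a::GFP, whose GFP is driven by a 2.3 kb Ptf1a enhancer, one that responds to Ptf1a itself, with a beta-globin basal promoter. The pancreas sample was RNA from whole, unsorted pancreas at E15.5 and had no transgene named in its label. Each label names 2 libraries, and the table holds 1 pooled FPKM value per gene and tissue, which is a fragment count scaled to transcript length and library size. No value therefore has a replicate error or a test, and every difference below describes these 2 pooled samples. Tissue, stage, sorting and RNA extraction all differ between the same samples and cannot be told apart, nor can fewer cells of a type and less RNA per cell.

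Wnt proteins are lipid-modified by Porcn, carried to the cell surface by Wls, and bind a Frizzled receptor together with Lrp5 or Lrp6. In the canonical branch this stops the Axin, Apc and Gsk3 complex from marking beta-catenin (Ctnnb1) for destruction, and beta-catenin then acts with TCF/LEF factors on target genes, among them Axin2, Nkd1 and Lef1. In the embryonic neural tube Wnt ligands from the dorsal midline pattern dorsal progenitors and sustain their division. In the pancreas the pathway is known for its part in the growth of acinar cells and for signals from the mesenchyme.

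Markers of the labelled tissues were checked first. All 12 neural tube markers were higher in the neural tube sample, and all 22 acinar markers that reached 5 FPKM were higher in pancreas. Markers of some other cell types were also higher in the pancreas sample. The 9 pancreatic epithelium markers summed to 1275 FPKM in pancreas against 28.6 in neural tube, although Sox9 was similar. The 8 endocrine markers summed to 2775 against 33.7, and the 4 mesothelium markers to 97.5 against 2.60. The 15 mesenchyme markers summed to 1460 FPKM in pancreas against 50.2 in neural tube, the 8 endothelial markers to 103 against 16.2, and the 8 macrophage markers to 235 against 7.80. Erythroid and neural crest markers were mixed. Of the 6 erythroid markers 4 were higher in pancreas, while the embryonic globins Hba-x and Hbb-bh1 were higher in neural tube, and the 7 neural crest markers held 2 such genes, Fabp7 and Ngfr, against Erbb3, which was higher in pancreas. None of the 31 mesenchyme, endothelial and macrophage markers was listed at 0 in either sample. From the lowest steps of the values, 1 fragment on a 1 kb transcript was worth about 0.0420 FPKM in the sorted cells and 0.0249 in pancreas, a depth roughly 1.68 times greater in pancreas. These steps are rough, since the commonest step was held by only 54 and 74 genes.

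A gene counts here as higher in a sample when log2(FPKM + 1) differed by 2 or more, which is 4 times in FPKM + 1, and the higher level reached 5 FPKM. It counts as similar when its levels reached 5 FPKM in neural tube and in pancreas and log2(FPKM + 1) differed by no more than 1, which is 2 times in FPKM + 1. A gene can therefore differ by more than 4 times in FPKM without a call, as Porcn did at 4.56 times. Of the 58 Wnt pathway genes, 25 reached 5 FPKM in at least 1 sample and 33 did not, among them 17 below 1 FPKM in both. The call was higher in neural tube for 5 of the 25 genes, Fzd10, Wnt4, Wnt7b, Axin2 and Fzd3, beside 10.3% of all 10744 genes at that level. It was higher in pancreas for 2, Wnt2b and Fzd6, beside 11.9% of all genes, and similar for 10, beside 44.8%. The median difference of the 25 genes was -0.04 in log2, neural tube minus pancreas, and that of all 10744 genes was 0.00 to 2 decimals. A gene that reached 5 FPKM only through its higher sample had to differ between the samples, so these counts describe the genes and are not evidence about the pathway.

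**Figure D1:**
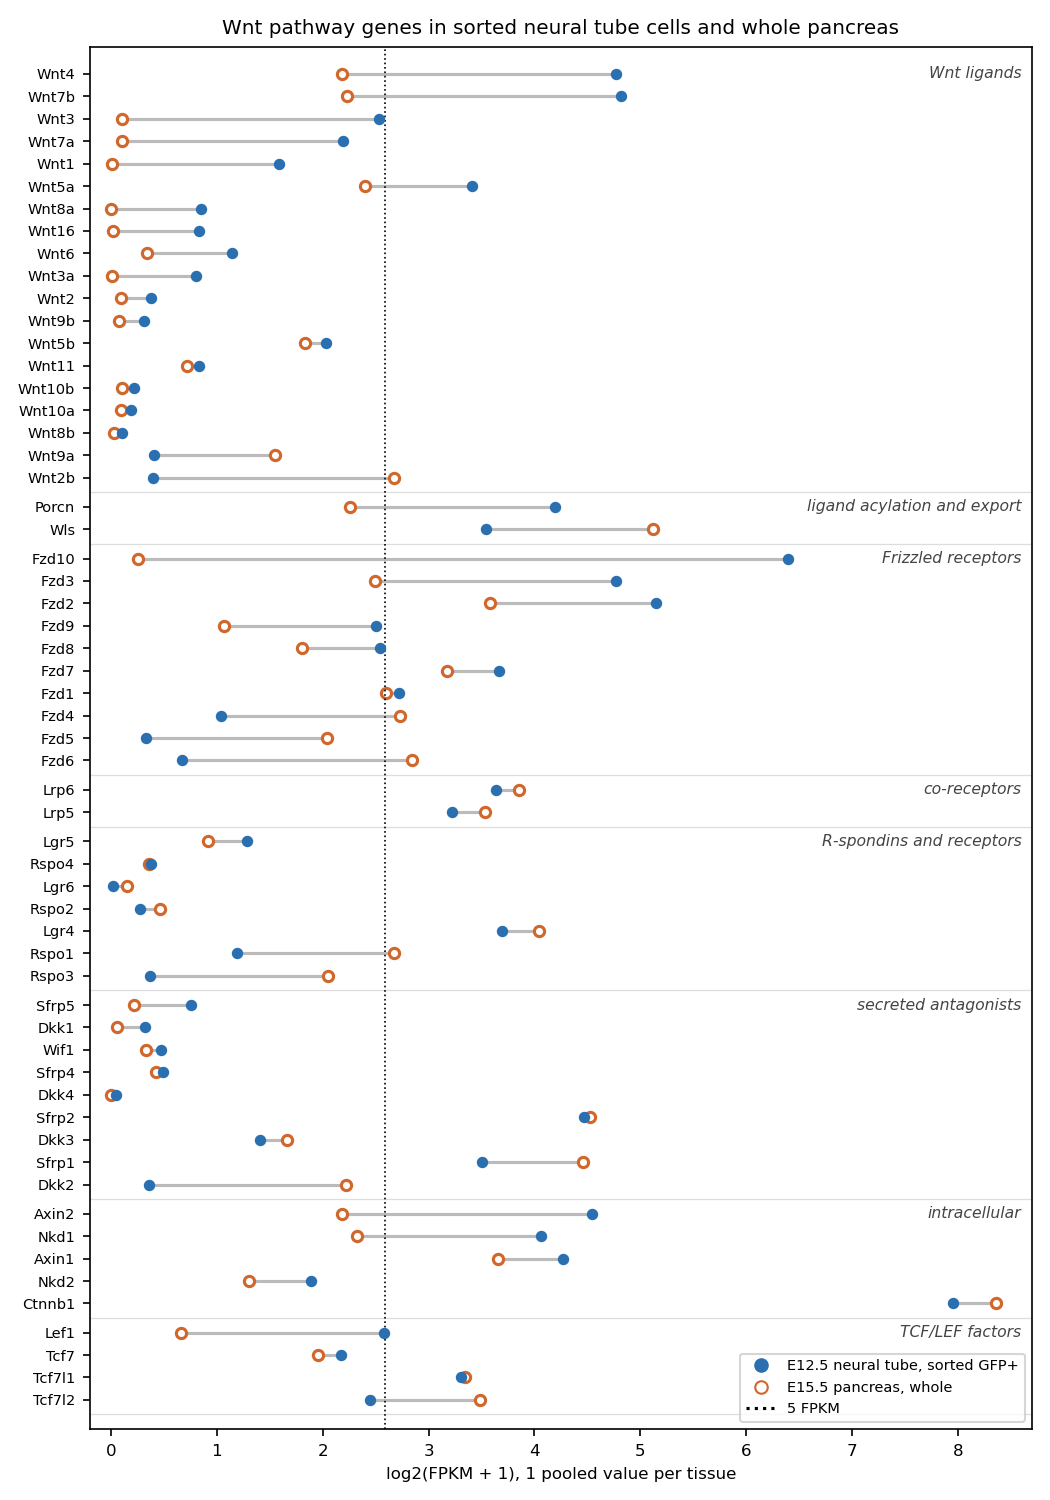
Level of each of the 58 Wnt pathway genes as log2(FPKM + 1) on the x axis, with 1 filled point for the sorted neural tube sample and 1 open point for the whole pancreas sample, grouped by role and joined by a line. Fzd10 has the longest line, the co-receptors Lrp5 and Lrp6 have short ones, and most ligands lie left of the dotted line at 5 FPKM.

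The Wnt ligands were led by different genes in the 2 samples. Wnt7b was at 27.2 FPKM in the sorted cells and 3.70 in pancreas, a difference of 2.59 on the log2(FPKM + 1) scale. Wnt4 was at 26.4 FPKM in the sorted cells and 3.53 in pancreas, also a difference of 2.59. Wnt2b went the other way, at 0.320 FPKM in the sorted cells and 5.39 in pancreas, a difference of -2.28. Wnt7b and Wnt4 are therefore the leading ligands of the sorted cells, present at a lower level in pancreas. Wnt2b instead leads in pancreas and is 14th of the 19 ligands in the sorted cells. Wnt4 (chromosome 4, 136833404 to 136855641, mm9) signals in many tissues by routes that need not involve beta-catenin, and Wnt7b (chromosome 15, 85365869 to 85412251) is a neuroepithelial and epithelial ligand. Wnt2b (chromosome 3, 104747723 to 104764627) is a canonical ligand often made by mesenchyme.

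Ligand levels were summed to see how concentrated each set was, which FPKM allows because it is scaled to length. The 19 ligands summed to 82.6 FPKM in the sorted cells and 22.8 in pancreas, a ratio of 3.62. Without Wnt4 and Wnt7b the sums were 29.0 and 15.54 FPKM, a ratio of 1.87. Those 2 genes made up 64.9% of the ligand sum in neural tube. In pancreas the sum was spread over more genes, with Wnt2b at 23.7%, Wnt5a at 18.8%, Wnt7b at 16.2% and Wnt4 at 15.51%. The order of the ligands within each sample does not depend on how the samples are scaled to each other, although neighbours in it cannot be told apart without replicates.

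Of the other ligands, only Wnt5a reached 5 FPKM. This ligand, which acts mainly outside the beta-catenin branch, was at 9.66 FPKM in the sorted cells and 4.28 in pancreas, a difference of 1.01. Its relative Wnt5b was at 3.10 and 2.56 FPKM. Wnt9a was at 0.323 FPKM in the sorted cells and 1.94 in pancreas, and apart from Wnt2b it was the only ligand with a larger value in pancreas. The other 17 ligands had the larger value in neural tube, Wnt6 for instance at 1.21 against 0.266 FPKM.

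Several further ligands were low in the sorted cells and lower still in pancreas. Wnt3 was at 4.79 FPKM in the sorted cells and 0.0757 in pancreas, just under the 5 FPKM minimum, and Wnt7a was at 3.57 and 0.0737. Wnt1 and Wnt3a, the classical ligands of the roof plate at the dorsal midline, were at 2.01 and 0.744 FPKM in neural tube and at 0.00889 and 0.00756 in pancreas. Those pancreas values correspond to about 1 fragment each, so the genes were at the limit of detection there. Wnt8a was at 0.805 FPKM in neural tube and listed at 0 in pancreas, and Wnt16 was at 0.776 and 0.0139. The roof plate markers Gdf7 and Lmx1a were themselves low in the sorted cells, at 0.227 and 0.339 FPKM, while Msx1 and Msx2, which also mark dorsal progenitors, were at 6.73 and 5.37. Bmp6, Rspo1 and Rspo3, on the same list of 9 markers, had the larger value in pancreas. Bmp6 was at 0.999 FPKM in the sorted cells and 2.27 in pancreas, Rspo1 at 1.28 and 5.37, and Rspo3 at 0.290 and 3.13. The part of roof plate cells in the values of Wnt1 and Wnt3a was not tested. A total of 9 ligands stayed below 1 FPKM in both samples, these being Wnt3a, Wnt8a, Wnt16, Wnt2, Wnt9b, Wnt11, Wnt10a, Wnt10b and Wnt8b, with values from 0.0738 to 0.805 FPKM in neural tube.

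**Figure D2:**
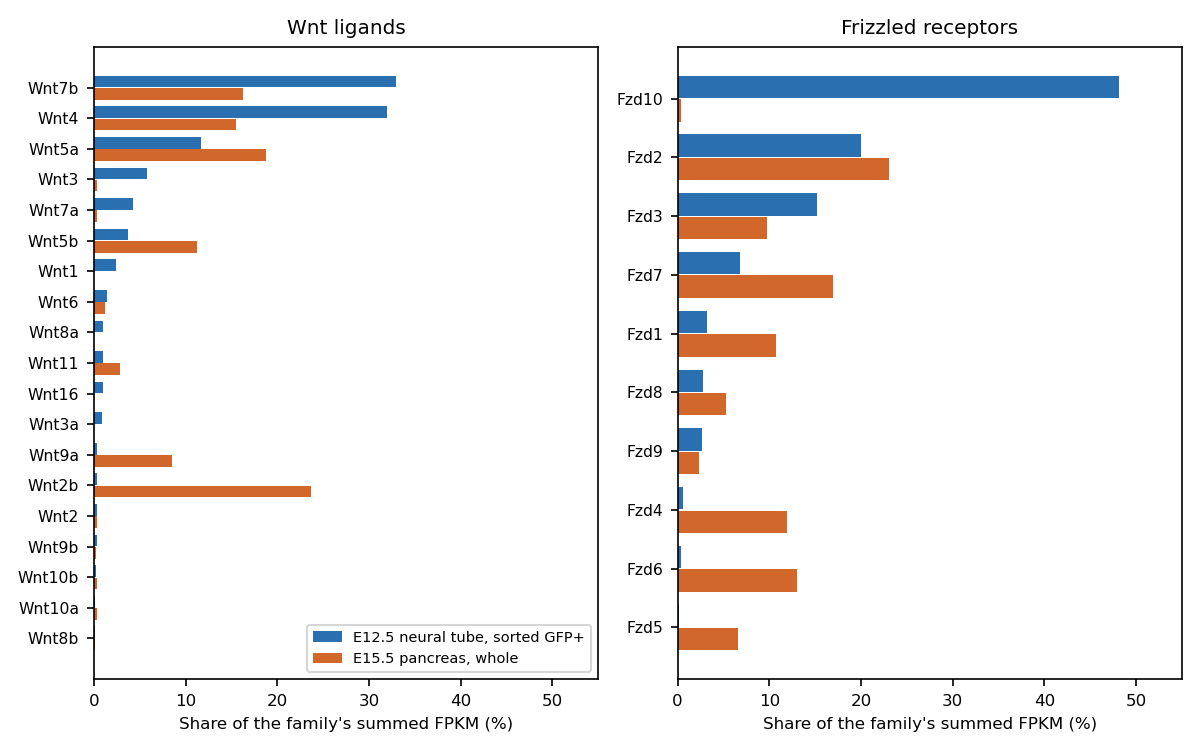
Share of each family's summed FPKM, in percent on the x axis, taken by each of the 19 Wnt ligands and 10 Frizzled receptors in the sorted neural tube sample and the whole pancreas sample. Wnt7b, Wnt4 and Fzd10 take the longest bars in neural tube, while in pancreas the bars are more even and Wnt2b and Fzd2 lead.

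The starts of 2 called genes are shown because they lie on opposite sides of the comparison, Axin2 higher in neural tube and Wnt2b higher in pancreas. Each is the 250 bases before the RefSeq start, 5′ to 3′ on the gene's strand, with CG dinucleotides in capitals. The RefSeq table (GRCm38.p6) was placed on NCBIM37, the build mm9, by exact match, Axin2 at chr11:108781413-108781662 on the plus strand and Wnt2b at chr3:104764628-104764877 on the minus strand.
Axin2: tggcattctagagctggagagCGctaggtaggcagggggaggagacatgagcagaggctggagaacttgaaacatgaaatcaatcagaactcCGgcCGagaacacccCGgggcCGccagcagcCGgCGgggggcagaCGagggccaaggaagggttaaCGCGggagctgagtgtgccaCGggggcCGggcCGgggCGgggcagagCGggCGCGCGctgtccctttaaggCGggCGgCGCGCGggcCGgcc
Wnt2b: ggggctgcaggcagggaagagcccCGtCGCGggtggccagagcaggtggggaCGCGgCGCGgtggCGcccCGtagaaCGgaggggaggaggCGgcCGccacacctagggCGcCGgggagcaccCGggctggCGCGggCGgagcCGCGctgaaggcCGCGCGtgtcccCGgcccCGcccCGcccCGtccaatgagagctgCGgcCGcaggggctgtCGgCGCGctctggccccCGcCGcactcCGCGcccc
Both windows are rich in CG, with 24 such dinucleotides in Axin2 and 36 in Wnt2b, and a G plus C content of 69.2% and 80.8%. The window of Wnt4, the other called gene with one, held 44 and 85.2%. The median over the 38 Wnt pathway genes with a window was 22 CG dinucleotides and 68.6%, against 6 and 52.4% over 32851 windows of all genes. These 3 windows are therefore CG-rich whichever sample was higher. Windows of Fzd10, Wnt7b, Fzd3 and Fzd6 were not used here.

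The same 38 windows were searched on both strands for the TCF/LEF core CTTTGA, the E-box CAGCTG that Ptf1a and its partners can bind, and the TC-box TTCCCA of the Rbpj family. The core was in 3 windows, Dkk1, Fzd1 and Wnt11, or 7.89%, beside 13.8% of all windows. The E-box was in 4 (Lgr6, Nkd1, Tcf7 and Wnt9a), or 10.5%, beside 13.001%. For Nkd1 and Tcf7 the RefSeq start lies 6289 and 165 bases inside the GENCODE gene, and their E-boxes lie inside it too. The RefSeq start of Dkk1 lies 169 bases inside, as does its core at 117 bases before that start. Its other core begins 174 bases before. The TC-box was in 6 (Lgr6, Nkd2, Tcf7l1, Wls, Wnt3 and Wnt9a), or 15.8%, beside 21.6%. Windows with both an E-box and a TC-box numbered 2, Lgr6 and Wnt9a, or 5.26%, beside 3.01%. The RefSeq starts of Tcf7l1 and Wnt4 also lie inside the GENCODE gene, by 209 and 146 bases, as does the TC-box of Tcf7l1. Windows of Axin2, Wnt4 and Wnt2b held none of these letters. Only these exact letters were searched, so other forms of a motif were not counted. The median G plus C content was 68.6% in the member windows and 52.4% in all windows, which the shares do not allow for. A match or its lack describes these 250 bases and is no measure of binding.

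The 2 genes that ready Wnt ligands for secretion leaned in opposite directions. Porcn, the membrane acyltransferase that attaches the lipid, was at 17.3 FPKM in the sorted cells and 3.79 in pancreas, a difference of 1.93 that falls just short of the call. Wls, the carrier that takes the lipid-modified ligand to the surface, was at 10.6 FPKM in the sorted cells and 33.8 in pancreas, a difference of -1.58. Porcn thus followed the ligand sum and Wls did not. Porcn was called higher in neural tube with a pseudocount of 0.1 FPKM and under 3 of the 5 rescalings. Wls kept its direction under every alternative tried, but with equal totals its difference was -0.98 and it counted as similar.

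Among the Frizzled receptors, Fzd10 stood apart. Fzd10 was at 82.9 FPKM in the sorted cells and 0.193 in pancreas, a difference of 6.14, the 57th largest toward neural tube of 10744 genes. Fzd3 was at 26.3 FPKM in the sorted cells and 4.64 in pancreas, a difference of 2.27. Fzd6, its closest relative in the family, was at 0.589 FPKM in the sorted cells and 6.17 in pancreas, a difference of -2.17. Fzd3 and Fzd6, both best known for planar polarity and axon growth, thus leaned in opposite directions. Fzd3 lies on chromosome 14 (65819863 to 65881300) and Fzd6 on chromosome 15 (38837879 to 38869732).

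The other Frizzled genes differed less. Fzd2 was at 34.6 FPKM in the sorted cells and 10.9 in pancreas, a difference of 1.57, and it led the family in pancreas. Fzd7 was at 11.7 and 8.05 FPKM and Fzd1 at 5.60 and 5.06, both similar. Fzd4, the receptor for norrin in vessels, was at 1.06 FPKM in the sorted cells and 5.64 in pancreas, a difference of -1.69. Fzd5 was at 0.254 and 3.12 FPKM, a difference of -1.72, and so below the minimum. Fzd8 and Fzd9 were at 4.82 and 4.66 FPKM in neural tube and at 2.50 and 1.09 in pancreas.

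The 10 Frizzled genes summed to 172 FPKM in the sorted cells and 47.4 in pancreas, a ratio of 3.64. Fzd10 alone was 48.1% of the neural tube sum, and without it the sums were 89.5 and 47.2 FPKM, a ratio of 1.90. In pancreas Fzd2 took 23.1%, Fzd7 17.0%, Fzd6 13.01%, Fzd4 11.9% and Fzd1 10.7%. Over the 5 rescalings the ratio of the Frizzled sums ranged from 3.37 to 5.62 and that of the ligand sums from 3.36 to 5.60. The endothelial markers were higher in pancreas for 5 of 7 genes at 5 FPKM or more and the mesenchyme markers for 10 of 12. The part of these cell types in Wnt2b, Fzd4 and Fzd6 was not tested, nor was that of epithelium, endocrine cells, mesothelium or macrophages.

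**Figure D3:**
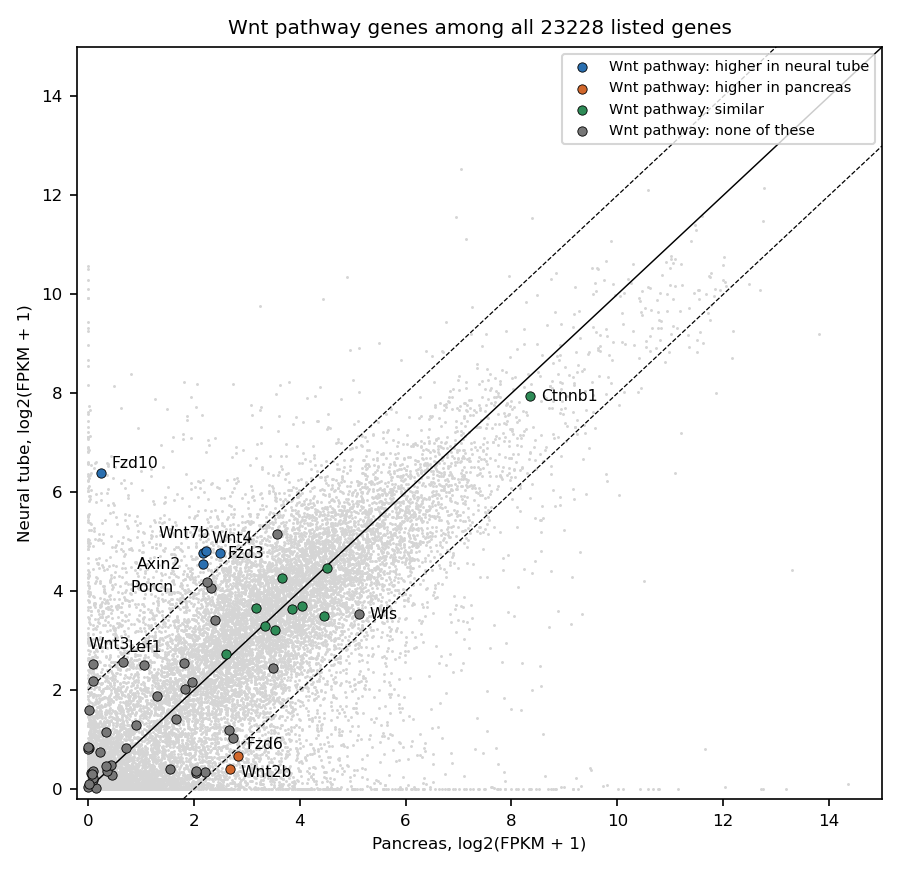
Neural tube against pancreas log2(FPKM + 1) for all 23228 listed genes (grey), with the 58 Wnt pathway genes coloured by their call, the line of equality, and dashed lines at differences of 2 and -2. Fzd10 lies far above the upper dashed line, Wnt4, Wnt7b, Axin2 and Fzd3 lie near it, and Ctnnb1 is the most abundant member.

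The co-receptors and beta-catenin were close in the 2 samples. Lrp5 was at 8.32 FPKM in the sorted cells and 10.5 in pancreas, and Lrp6 at 11.5 and 13.5. Ctnnb1, which encodes beta-catenin and also serves cell junctions, was at 246 and 327 FPKM, the highest of all 58 genes in both samples. These 3 genes were called similar, and their small lead in pancreas turned to neural tube under some rescalings. The call does not show that they were equal, because no error is known.

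The R-spondins, which strengthen Wnt signals by way of Lgr receptors, were low in the sorted cells. Rspo1 was at 1.28 FPKM in the sorted cells and 5.37 in pancreas, a difference of -1.48, and Rspo3 was at 0.290 and 3.13, a difference of -1.68. The 4 R-spondins summed to 2.08 FPKM in the sorted cells and 9.16 in pancreas. Rspo2 and Rspo4 were below 1 FPKM in both. Of the receptors, Lgr4 was similar at 11.9 and 15.52 FPKM, with a difference that changed sign under rescaling. Lgr5, also a target of the pathway, was at 1.44 and 0.889 FPKM, and Lgr6 was at 0.0117 and 0.109. Lgr4 therefore made up most of the Lgr sum in each sample, 89.1% in neural tube and 94.0% in pancreas.

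Of the 9 secreted antagonists, 2 reached 5 FPKM. Sfrp2, a Frizzled-related protein that binds Wnt ligands, was at 21.1 FPKM in the sorted cells and 22.0 in pancreas. Sfrp1 was at 10.3 and 21.0 FPKM, a difference of -0.96 that still counted as similar. That call was lost with a pseudocount of 0.1 FPKM, with the upper quartile rescaling and with similar set within 1.5 times. These 2 genes were 96.6% of the Sfrp sum in neural tube and 98.8% in pancreas, while Sfrp4 and Sfrp5 stayed below 1 FPKM in both. Of the Dkk genes, whose products block the Lrp co-receptors, none reached 5 FPKM. Dkk2 was at 0.281 FPKM in the sorted cells and 3.64 in pancreas, Dkk3, a divergent member, was at 1.66 and 2.17, and Dkk1 was at 0.246 and 0.0401. Dkk4 was at 0.0340 FPKM in neural tube and listed at 0 in pancreas, and Wif1, another ligand-binding inhibitor, was at 0.385 and 0.259.

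Of the intracellular feedback genes, Axin2 was higher in the sorted cells. Axin2 (chromosome 11, 108781663 to 108812097), a scaffold of the destruction complex and a widely used reporter of canonical signalling, was at 22.4 FPKM in the sorted cells and 3.53 in pancreas, a difference of 2.37. Nkd1, an inhibitor that binds Dishevelled and is also induced by the pathway, was at 15.7 and 3.99 FPKM, a difference of 1.74. Axin1, the scaffold that is not a common target, was similar at 18.3 and 11.6 FPKM. Nkd2 was at 2.71 and 1.47 FPKM. Of the scaffolds, Axin2 thus differed by more than Axin1, and Nkd1 fell short of the call.

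The TCF/LEF factors, which bring beta-catenin to DNA, had nearly the same sum, 21.8 FPKM in the sorted cells and 22.8 in pancreas, with a different makeup. Tcf7l1, mainly a repressor, was similar at 8.87 and 9.14 FPKM. Tcf7l2 was at 4.44 FPKM in the sorted cells and 10.2 in pancreas, a difference of -1.05. Lef1, an activator and a target, was at 4.96 FPKM in the sorted cells and 0.583 in pancreas, a difference of 1.91 that is just short of both limits of the call. Lef1 was 22.8% of the TCF/LEF sum in neural tube and 2.55% in pancreas, and Tcf7l2 was 20.4% and 44.8%. Tcf7 was at 3.50 and 2.89 FPKM.

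Genes of the pathway outside these 58 were taken from 5 lists. Of 87 such genes found, 66 reached 5 FPKM, with 14 counted as higher in the sorted cells, 5 as higher in pancreas and 10 as similar. These are 21.2%, 7.58% and 15.2% of the 66, beside 10.3%, 11.9% and 44.8% of all genes at that level, the shares against which each list below is to be read. Their median difference was 1.08. Over the rescalings the neural tube calls ranged from 11, beside 9.63% of all genes, to 23, beside 16.2%, and the pancreas calls from 7, beside 12.9%, to 2, beside 7.96%.

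Of 21 destruction complex and Dishevelled genes, 5 were called higher in neural tube (23.8%, beside 10.3% of all genes) and 1 in pancreas (4.76%, beside 11.9%). Apc2, the neural relative of Apc, was at 80.7 FPKM in the sorted cells and 0.290 in pancreas, a difference of 5.98. Csnk1e, a casein kinase, was at 105 and 12.4 FPKM, Dvl3, a Dishevelled protein, at 65.5 and 7.57, and Gsk3b, the kinase that marks beta-catenin, at 46.8 and 10.3. The exception was Dact2, a Dishevelled-binding regulator, at 0.364 FPKM in the sorted cells and 5.56 in pancreas. The list's median was 1.47, and it stayed between 1.37 and 2.09 over the rescalings. Gsk3b, with a difference of 2.08, lies close to the limit of the call, and the neural tube calls in this list numbered 3 with the upper quartile rescaling, beside 9.63% of all genes, and 11 with equal totals, beside 16.2%.

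Nuclear co-factors were higher in neural tube for 4 of 12 genes (33.3%, beside 10.3% of all genes). In pancreas 0 were higher (beside 11.9%), and the median was 1.40. The Groucho co-repressors Tle3, at 46.3 and 8.18 FPKM, and Tle4, at 14.6 and 2.07, were 2 of the 4. The beta-catenin co-activators Pygo1, at 13.4 and 1.95 FPKM, and Bcl9, at 33.3 and 7.41, were the others. Co-repressors and co-activators were thus both among the genes higher in neural tube. Bcl9, with a difference of 2.03, lies close to the limit. The neural tube calls numbered 3 with the upper quartile rescaling, beside 9.63% of all genes, and 6 with equal totals, beside 16.2%. Aes, the list's most abundant gene, had the larger value in pancreas, at 137 and 287 FPKM, as did Tle2.

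Planar polarity genes and alternative receptors held the largest differences after Apc2. Of 14 genes, 4 were higher in neural tube (28.6%, beside 10.3% of all genes) and 1 in pancreas (7.14%, beside 11.9%). Celsr2, an adhesion receptor of the polarity complex, was at 72.0 FPKM in the sorted cells and 2.87 in pancreas, and its relative Celsr3 was at 28.0 and 0.718. Vangl2, their membrane partner, was at 72.5 and 3.36 FPKM, and Scrib was at 44.3 and 9.32. Prickle3 was at 0.990 FPKM in the sorted cells and 9.20 in pancreas. The receptor kinases Ptk7 and Ryk were similar, Ptk7 at 28.1 and 27.9 FPKM and Ryk at 22.5 and 31.2.

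Of 12 other membrane and secreted regulators, 3 were higher in pancreas (25%, beside 11.9% of all genes) and 0 in neural tube, with a median of -1.21. With rescaling to equal totals 2 of 10 were higher in pancreas and the median was -0.65. Gpc3, a glypican that modulates Wnt and hedgehog signals, was at 43.6 FPKM in the sorted cells and 346 in pancreas. Sostdc1, a secreted inhibitor of Lrp and of BMP, was at 0.195 and 8.59 FPKM, and Lypd6 at 0.346 and 5.50. Of the commonly used target genes, Jun was similar at 19.99 and 15.6 FPKM, and Myc, a regulator of cell growth, was at 5.57 FPKM in the sorted cells and 19.3 in pancreas.

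**Figure D4:**
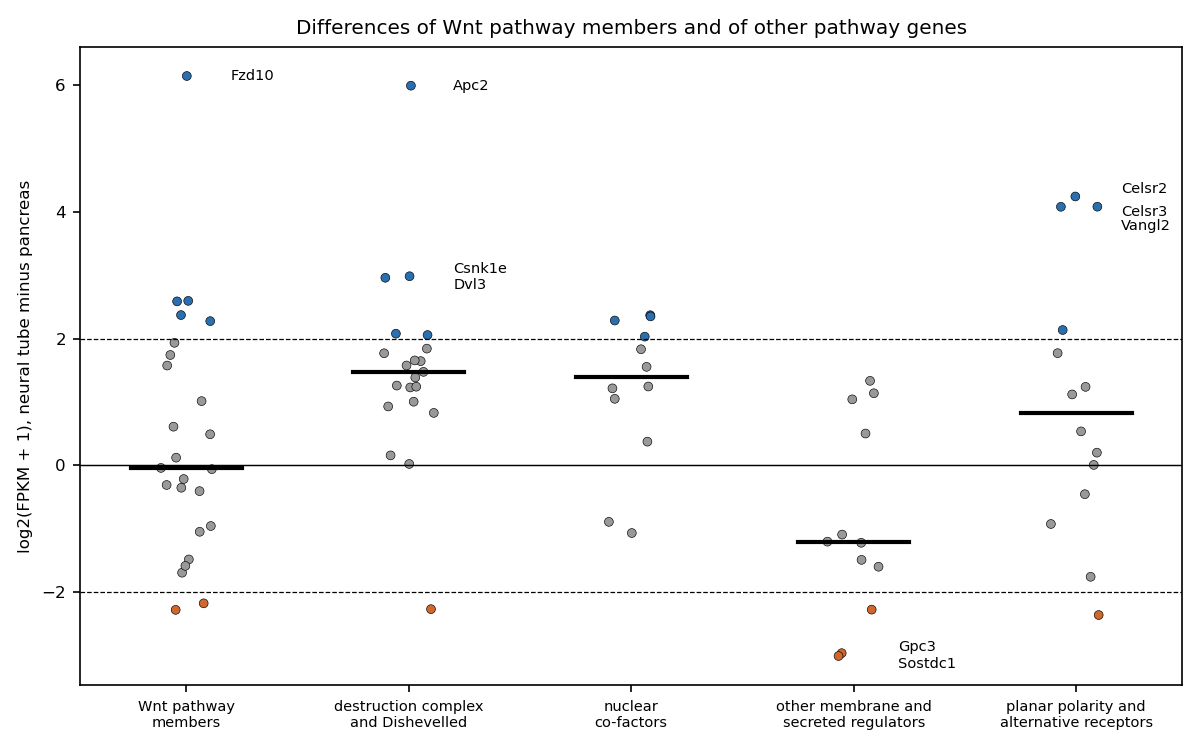
Difference in log2(FPKM + 1), neural tube minus pancreas, of each gene that reached 5 FPKM, for the Wnt pathway members and 4 of the other lists, with each list's median as a black bar and dashed lines at 2 and -2. The destruction complex and nuclear lists lie mostly above 0, with medians of 1.47 and 1.40, and the membrane and secreted regulators mostly below.

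**Figure D5:**
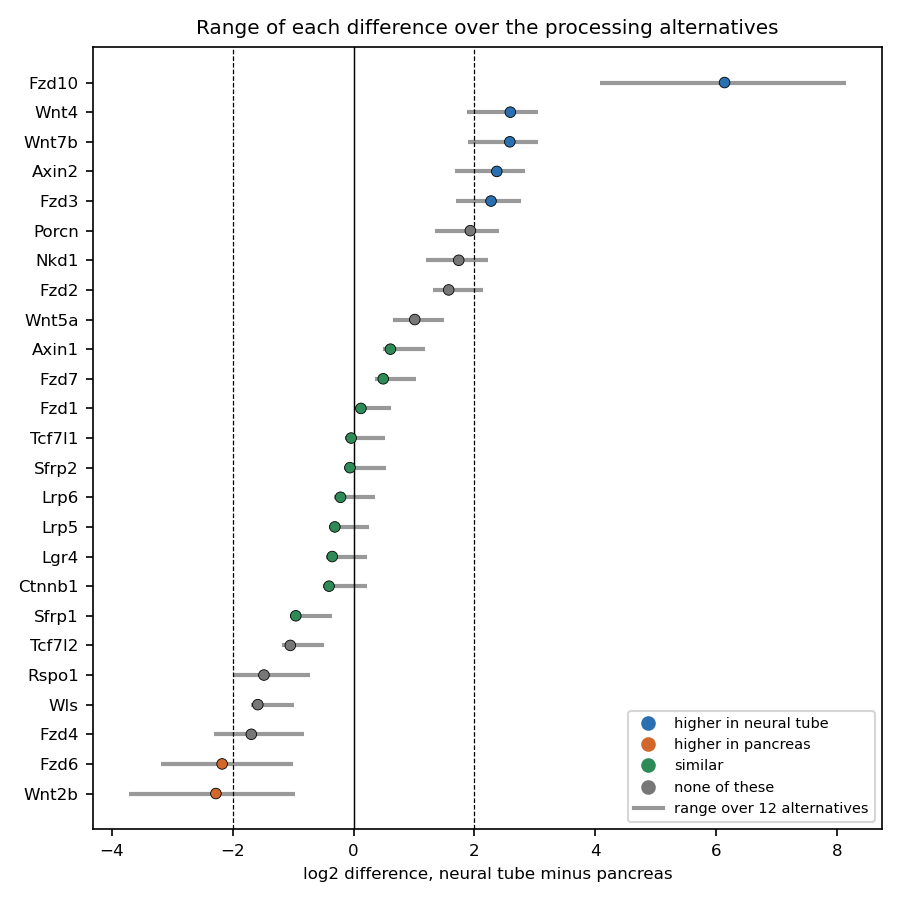
Difference of each of the 25 Wnt pathway genes that reached 5 FPKM (points, coloured by call), with the range of the difference over 12 processing alternatives as a grey bar and dashed lines at 2 and -2. Fzd10 stays beyond the line throughout, the other called genes cross it, and 6 of the similar genes cross 0.

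Of the 7 genes called higher in a sample, Fzd10 alone kept that call under all 12 alternatives, with a difference from 4.08 to 8.15. Wnt4, Wnt7b, Axin2 and Fzd3 kept their call under all 5 rescalings and lost it with a pseudocount of 5 FPKM and at a size of 8 times. The pancreas calls of Wnt2b and Fzd6 were lost under 6 of the 12 alternatives, among them 3 rescalings in which pancreas values became smaller and both genes fell below 5 FPKM or short of the size. With rescaling to the housekeeping list the calls were 7 toward neural tube, beside 13.8% of all genes, and 0 toward pancreas, beside 9.23%. With equal totals they were 8 and 0, beside 16.2% and 7.96%.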

How the data were processed

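RNA values of 2 samples were used, and the other 16 samples of the series are not analysed here. The table holds FPKM as the authors deposited them, 1 pooled value per gene and tissue. Per the submitters' processing notes the tools were CASAVA, TopHat, TopHat2 2.0.4 and Cuffdiff 2.0.2 with build mm9. What each tool did, the annotation and any filter: not given in the sources used here. Sorted cells gave RNA by a column kit and pancreas by Trizol, and the preparations named are mRNA-seq and, for pancreas, also TruSeq, per the labels' protocols, so library preparation may differ too. FPKM depends on the transcript length assumed and on what abundant genes take of a library.

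Differences are neural tube minus pancreas on log2(FPKM + 1), a scale that understates low genes, computed for all 23228 genes (0 repeated symbols) with Python 3.11.15 and pandas 2.3.3. Calls are rules of size, not tests. Of the 58 genes, 57 had 1 gene of that name in GENCODE M1 (NCBIM37, the same build as mm9), which gives the coordinates. RefSeq windows were found for 39 and used for 38. Only windows with 1 exact match were kept, 1 per gene, and any on chromosome 18 were left out. The windows of all genes had none of these limits. Depth was estimated from the commonest low step of FPKM times length. Every Wnt pathway gene at 5 FPKM or more is named, and of each other list up to 4 called genes in each direction. Genes named below these limits were chosen after their values were seen. The symbol pattern that picks the members uses no measured value, but the pathway, the lists and the limits were chosen with earlier results of these data known. The 12 alternatives changed the pseudocount, the minimum, the scaling or the size called. Some results of the list of target genes are not reported here.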

Additional observations from a re-analysis of the deposited data

How the results depend on the processing

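Of the Wnt pathway genes, 5 counted as higher in the sorted cells, 2 as higher in pancreas and 10 as similar. The shares of all genes called move with the same settings and stand beside the counts. With a pseudocount of 5 FPKM the counts toward neural tube and pancreas were 1 and 0 (all genes 4.77% and 5.58%), and a size of 8 times also gave 1 and 0 (5.08% and 6.08%). A size of 2 times gave 9 and 6 (23.2% and 25.04%). Rescaling to equal totals gave 8 and 0 (16.2% and 7.96%). The pancreas count was also 0 with a minimum of 10 FPKM (12.1%), with rescaling to the housekeeping list (9.23%) and with equal totals without the most abundant genes (9.67%). The similar count was 34 with no minimum level, where genes near 0 count as similar (71.2%), and 6 with a minimum of 10 FPKM (39.5%). The median difference, -0.04 as deposited, was -0.028 with a pseudocount of 5 FPKM, -0.064 with the median ratio and -0.14 with the upper quartile. It turned to 0.17 with no minimum, 0.55 with a minimum of 10 FPKM, 0.83 with the housekeeping list, 1.03 with equal totals and 0.77 without the most abundant genes. Under those last 3 rescalings 21 Wnt pathway genes met the minimum level, against 25 as deposited. Wnt2b, Fzd6, Fzd4 and Rspo1, all larger in pancreas, dropped out, so these medians are not over the same genes as -0.04. For the whole table under the same minimum, the median was -0.003 as deposited. Those 3 rescalings moved it to 0.43, 0.67 and 0.35. For the other set of genes, those that reached 1 FPKM in each sample, it went from 0.02 to 0.35, 0.55 and 0.29. Of the 18 named genes without a call of higher, 8 gained one under some alternative. The rescaled ratios of family sums were added after seeing the data. No paired analysis was possible because each tissue has 1 pooled value. Genes worth only a few fragments, such as Wnt1 in pancreas, cannot be ranked at this depth.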

Other observations

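Genes of the norrin and vascular Wnt7 receptor complexes had larger values in pancreas without reaching the call. Tspan12, a partner of Fzd4, was at 4.97 FPKM in the sorted cells and 17.0 in pancreas. Gpr124 and Reck, of the Wnt7 receptor complex, were at 3.55 and 11.8 and at 2.88 and 7.26. Ndp, which encodes norrin itself, went the other way at 2.64 and 0.314. Pecam1, the endothelial marker with the largest difference, was at 1.39 FPKM in the sorted cells and 24.3 in pancreas. Cldn5, on the same list, was similar at 5.23 and 7.73, and Tie1 had no call at 2.28 and 7.87. The part of endothelial cells in these values was not tested.

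Genes often used as readouts of canonical signalling did not move together. Axin2, Nkd1, Lef1 and Sp5 had the larger value in neural tube, with Sp5 at 1.89 FPKM and 0.194 in pancreas. Notum, at 1.02 and 4.19, Rnf43, at 0.0935 and 3.80, and Myc, at 5.57 and 19.3, had it in pancreas. Of these 7 genes only Axin2 met both limits of the call, and Rnf43 passed the size but not the minimum level. Znrf3, the relative of Rnf43 in removing Frizzled receptors from the surface, was at 3.003 and 3.15, and Ccnd1 was at 76.0 and 37.3. These genes were picked after their values were seen, and several are below 5 FPKM in both samples.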
